A study of Mus musculus with 6 samples.

Results

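Regulatory T cells (Tregs) in libraries labelled as a conditional knockout of Noc4l were followed from 48 h to 72 h of activation. The members were the genes with an Ensembl ID and a mean of at least 5 FPKM (a gene's fragments divided by its length in kilobases and by the fragment total of the library) over 2 libraries, cKO replicate 2 at 48 h and cKO replicate 2 at 72 h. They numbered 9207 of 47069 genes. Each value called a change below is the log2(FPKM + 1) at 72 h minus that at 48 h, and genes are called 2-fold higher or lower where the change is at least 1 in size. There was 1 library per time, so no change has a test, a standard error or a replicate check. The offset of 1 understates the changes of genes at low FPKM.

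The cells came from mice with a Foxp3-driven Cre recombinase, which acts in Tregs, and either 1 floxed Noc4l allele beside a normal one (Noc4l+/fl, here Het) or a floxed pair (Noc4lfl/fl, here cKO). One sentence of the labels gives both genotypes the same allele pair, so the genotype was taken from the label of each library. Cells were sorted from lymph node and spleen on CD4, GFP and a further surface marker, activated with Dynabeads and collected at 48 h (Het 1 and cKO 2) or 72 h (Het 1, cKO 2, Het 3 and cKO 4). The labels do not give the age of the mice or the number of animals behind a library. Het 1 at 48 h and 72 h is set beside the cKO step as the same interval in the other genotype. cKO 4 at 72 h was used to see whether a 72 h level recurred; Het 3 and cKO 4 stand in a second table, so levels set across the tables also carry any difference in how the tables were made, which the labels do not describe.

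Tregs restrain other lymphocytes and are held in their lineage by the transcription factor Foxp3. After stimulation through the antigen receptor, a T cell first makes short-lived transcription factors of the Fos, Egr and Nr4a families, then enlarges its supply of ribosomes and divides, and later takes on effector features directed by interleukin 2, interleukin 12 and interferons. Noc4l is the mammalian counterpart of a yeast protein that acts in the assembly of the small ribosomal subunit. Loss of ribosome assembly factors is known to activate p53, since free ribosomal proteins bind its inhibitor Mdm2.

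Noc4l itself (ENSMUSG00000033294) was present in every library and went against the labels. In the libraries labelled cKO it stood at 124 FPKM at 48 h, at 81.7 in cKO 2 at 72 h and at 58.1 in cKO 4 at 72 h. In Het 1 it stood at 99.1 at 48 h and 48.8 at 72 h, and in Het 3 at 40.8. The libraries labelled cKO thus lay above the Het libraries of the same time, and every direction below belongs to the libraries as labelled. The change was -0.60 in cKO 2, a ratio of 0.657 (95% counting interval 0.618 to 0.699), and -1.01 in Het 1. Counting intervals here and below cover counting error only. One value per gene cannot show the loss of a floxed exon.

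The labelled cell type was checked on 9 markers of Tregs and CD4 T cells, which summed to 3574 to 4557 FPKM per library with none at 0. Foxp3 (ENSMUSG00000039521) stood at 225 FPKM in cKO 2 at 48 h, 173 at 72 h and 336 in cKO 4, and at 207, 147 and 278 in Het 1 at 48 h, Het 1 at 72 h and Het 3. It was highest in the 2 libraries of the second table. Il2ra, the high-affinity chain of the interleukin 2 receptor, had a change of 0.10 in cKO 2, the inhibitory receptor Ctla4 of -0.31, the transcription factor Ikzf2 of -0.06 and Tnfrsf18 (GITR) of 0.06.

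Estimated depth was 16.5 to 28.8 M fragments per library. Transcripts of other cells were uneven over the libraries. The 13 neutrophil markers summed to 423 and 367 FPKM in cKO 2 at 48 h and 72 h, and to 25.4 to 80.3 in the other 4 libraries, where 3 to 8 of the 13 were at 0. The 17 markers of monocytes, macrophages and dendritic cells summed to 48.9 and 38.6 FPKM in cKO 2, and to 3.88 to 12.2 in the other 4 libraries. The Y-linked genes Ddx3y (13.9 and 22.9 FPKM), Eif2s3y (33.2 and 67.5), Kdm5d (6.23 and 11.7) and Uty (3.095 and 7.16) were higher in cKO 2 at 72 h than at 48 h, while Xist, expressed from the inactive X, stood at 89.1 and 55.9. In Het 1 these genes went the other way, with Eif2s3y at 48.0 and 33.8 and Xist at 76.3 and 106.5. Xist and these Y-linked genes were present in every library. The part of these differences in the results was not tested. Markers of B cells and of CD8 T and NK cells are given beside the results they moved with. In bulk libraries, more cells of a type and more RNA per cell cannot be told apart.

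Most transcripts stood at nearly the same level at both times in cKO 2. Of the 9207 genes, 90.1% had a change within 0.5 in either direction, against 76.1% in Het 1, and the median change was 0.03. The middle 90% of changes ran from -0.43 to 0.58 in cKO 2 and from -0.79 to 0.79 in Het 1. In cKO 2, 195 genes (2.12%) were at least 2-fold higher at 72 h and 51 (0.554%) at least 2-fold lower. In Het 1, 295 of the same 9207 genes (3.2%) were higher and 237 (2.57%) lower. Over the 9207 genes the changes of cKO 2 and Het 1 had a Pearson r of 0.30, a description of 4 libraries from 1 table whose genes are not independent.

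Of the 195 higher genes, 148 were protein-coding, 19 were antigen receptor segments, 10 were pseudogenes and 18 were of other kinds. Het 1 was also at least 2-fold higher for 70 of them, within 2-fold for 114 and at least 2-fold lower for 11. Of the 51 lower genes, 20 were at least 2-fold lower in Het 1, 29 within 2-fold and 2 higher. A 72 h level was said to recur where cKO 4 lay on the 72 h side of the midpoint between the 48 h and 72 h levels of cKO 2. It recurred for 120 of the 195 higher genes, or 61.5%, beside 63% of all genes with a change above 0. It recurred for 43 of the 51 lower genes, or 84.3%, beside 55.5% of all genes with a change below 0. The 48 h library is shared by both sides of this count, and 15 of the 51 were at least 2-fold above every other library there, so any other library lies on the 72 h side. Among the other 36 lower genes, 28 recurred. Over all 9207 genes the share was 59.6%, and 7.47% stood at least 2-fold apart between cKO 4 and cKO 2 at 72 h. The midpoint rule asks a larger step of a 2-fold gene than of a gene that changed little. The shares over all genes are therefore not a like-for-like baseline for those of the 2-fold genes.

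Just inside the 2-fold line stood Enah (1.00146) and Irf1 (1.00412), and just outside stood Eif2s3y (0.99951), Uty (0.99) and Cpm (-0.99). Of all genes, 39 lay within 0.03 of the line. The minimum of 5 FPKM was just reached by Kyat3, with a mean of 5.00058 FPKM, and just missed by Wrb, with a mean of 4.99505 FPKM.

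**Figure D1:**
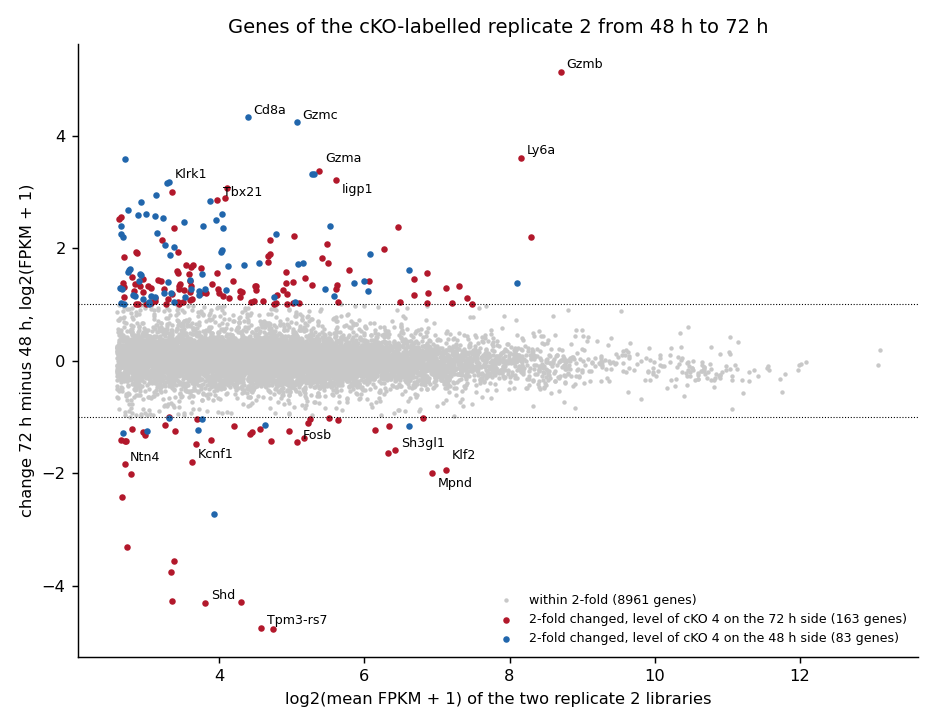
Change from 48 h to 72 h in cKO 2 (vertical axis, log2(FPKM + 1)) against the log2 of the mean FPKM + 1 of its 2 libraries (horizontal axis), 1 point per gene. Dotted lines mark 2-fold; among the genes past them, red points have a cKO 4 level on the 72 h side and blue points on the 48 h side, and Gzmb stands highest at 5.14.

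Promoters are shown for a pair of interferon-induced GTPases, Gbp2 and Irgm1, and for the metallothioneins Mt1 and Mt2, since members of these groups were higher together. Each is the RefSeq sequence (GRCm38.p6) of 300 bases around the start of the gene, most of it upstream, 5′ to 3′ on the gene's strand. Capitals mark matches to the core of the interferon-stimulated response element (GAAA, any 2 bases, then GAAA) in the first pair and to the metal response element (TGCACNC or TGCGCNC) in the other pair, searched on both strands. Gbp2 lies at chr3:142620413-142620712 (plus strand), Irgm1 at chr11:48871371-48871670 (minus strand), Mt1 at chr8:94178839-94179138 (plus strand) and Mt2 at chr8:94172368-94172667 (plus strand).
Gbp2: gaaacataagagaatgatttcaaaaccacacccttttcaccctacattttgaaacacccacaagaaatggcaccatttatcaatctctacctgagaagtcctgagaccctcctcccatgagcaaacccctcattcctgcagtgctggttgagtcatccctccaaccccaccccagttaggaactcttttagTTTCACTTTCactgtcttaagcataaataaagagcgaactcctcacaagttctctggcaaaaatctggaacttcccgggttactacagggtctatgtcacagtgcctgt
Irgm1: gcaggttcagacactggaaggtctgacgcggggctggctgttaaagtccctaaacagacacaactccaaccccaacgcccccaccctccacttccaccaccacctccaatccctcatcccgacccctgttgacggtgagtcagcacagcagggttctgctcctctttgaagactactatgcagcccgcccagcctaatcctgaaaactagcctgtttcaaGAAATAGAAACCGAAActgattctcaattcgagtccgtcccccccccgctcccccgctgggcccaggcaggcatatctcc
Mt1: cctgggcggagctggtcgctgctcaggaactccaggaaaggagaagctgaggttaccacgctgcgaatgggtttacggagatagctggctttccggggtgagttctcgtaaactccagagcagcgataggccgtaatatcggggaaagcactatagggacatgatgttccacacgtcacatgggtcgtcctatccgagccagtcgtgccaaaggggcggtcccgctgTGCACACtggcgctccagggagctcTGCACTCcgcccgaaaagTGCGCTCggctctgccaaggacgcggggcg
Mt2: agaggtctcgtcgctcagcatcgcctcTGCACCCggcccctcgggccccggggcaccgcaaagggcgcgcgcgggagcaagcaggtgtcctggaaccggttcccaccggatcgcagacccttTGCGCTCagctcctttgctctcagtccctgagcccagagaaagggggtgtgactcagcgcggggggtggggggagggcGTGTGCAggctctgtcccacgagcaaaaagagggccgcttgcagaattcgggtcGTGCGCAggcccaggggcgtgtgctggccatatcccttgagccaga

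Gbp2 held 1 match and Irgm1 2 that overlap, while Mt1 held 3 metal element matches and Mt2 4. The interferon core was in 12 of 26 promoters (46.2%) of the interferon-stimulated genes past the filter, in 18 of 151 promoters (11.9%) of the 2-fold higher genes and in 3.13% of the 9188 promoters of all genes past the filter. The GAS motif (TTCNNNGAA), through which interferon gamma is known to act, was in 34.6%, 20.5% and 6.75% of the same promoters. Either metal element was in 6 of 13 promoters (46.2%) of the metallothionein and zinc list, in 36 of 151 promoters (23.8%) of the 2-fold higher genes and in 36.1% of the 9188. A match describes letters in this window and is not a site or a cause.

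Genes of cytotoxic granules included the highest change of all. Granzyme B (Gzmb, ENSMUSG00000015437), a protease that kills target cells, stood at 22.1 FPKM in cKO 2 at 48 h, 811 at 72 h and 227 in cKO 4. In Het it stood at 23.7, 379 and 182 in Het 1 at 48 h, Het 1 at 72 h and Het 3. Every 72 h library was above both 48 h libraries, and cKO 2 was the highest. The change was 5.14, a ratio of 36.7 (95% counting interval 34.1 to 39.6), beside 3.94 in Het 1.

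From here on, 3 values for the libraries labelled cKO are those of cKO 2 at 48 h, cKO 2 at 72 h and cKO 4 at 72 h, and 3 values for Het are those of Het 1 at 48 h, Het 1 at 72 h and Het 3 at 72 h. Granzyme A (Gzma) stood at 6.37, 74.9 and 22.8 FPKM in the libraries labelled cKO and at 4.71, 14.04 and 1.92 in Het. Granzyme C (Gzmc) stood at 2.38, 62.8 and 7.61, and at 1.82, 8.85 and 3.87 in Het. Nkg7, a membrane protein of cytotoxic granules, stood at 27.5, 148 and 89.1, and at 18.1, 29.1 and 6.48 in Het. For these 3 genes cKO 2 at 72 h was the highest library, and Gzmc was back on the 48 h side in cKO 4. Of 16 cytotoxic genes, 9 passed the filter. Of these, 6 were at least 2-fold higher, where 2.12% of all genes were, and 0 lower. The median change was 1.14, beside 0.66 in Het 1. Perforin (Prf1), which opens pores in target cells, missed the filter by its mean and was also higher at 72 h, at 1.901 and 7.71 FPKM in cKO 2.

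Markers of CD8 T, NK and innate T cells were also higher at 72 h in cKO 2. The 12 markers summed to 45.6, 332 and 126 FPKM in the libraries labelled cKO and to 32.3, 88.3 and 15.2 in Het. Gzma and Nkg7, counted above as granule genes, are in this list too and made up most of its sum in the libraries labelled cKO. The sum is therefore not independent of the granule genes. Of the 12, 7 passed the filter. All 7 were at least 2-fold higher in cKO 2, where 2.12% of all genes were, as were 6 in Het 1, where 3.2% were. Cd8a, a chain of the CD8 coreceptor, stood at 0.992, 39.03 and 2.24 FPKM, and at 0.466, 20.3 and 1.01 in Het. It was high in the 2 libraries of the first table at 72 h and at most 2.24 FPKM elsewhere. The NK receptor genes Klrk1 (0.9703, 16.9 and 1.29) and Klrd1 (0.992, 14.4 and 0.453) were likewise high in cKO 2 at 72 h and not in cKO 4. Ncr1, which defines NK cells, stood at 0.27004 and 0.566 FPKM in cKO 2. Gzmb stood at 811 and 379 FPKM in cKO 2 and Het 1 at 72 h, where Cd8a was high, and at 227 and 182 in cKO 4 and Het 3. The part of such cells in the granule result was not tested.

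Tbx21 and Ifng, 2 genes of the effector cytokine and factor list, were higher at 72 h in the libraries labelled cKO. Tbx21 (T-bet, ENSMUSG00000001444), the transcription factor that directs T helper 1 cells, stood at 2.82, 26.7 and 14.8 FPKM, and at 3.04, 2.04 and 2.23 in Het. Interferon gamma (Ifng), its best known target, stood at 0.809, 9.68 and 7.603, and at 0.605, 0.277 and 0.647 in Het. For both genes the 72 h libraries labelled cKO stood above the other 4 without overlap.

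The interleukin 12 receptor chain Il12rb2 stood at 2.52, 18.4 and 5.99 FPKM in the libraries labelled cKO, and its partner Il12rb1 at 21.7, 45.02 and 50.03. The T-box factor Eomes stood at 1.75, 14.999 and 4.18. The chemokine Xcl1 stood at 1.19 and 9.37 in cKO 2 and was listed at 0 in cKO 4. Of these, Il12rb1 kept its 72 h level in cKO 4, while Il12rb2, Eomes and Xcl1 lay on the 48 h side. Of 33 effector cytokines and factors, 19 passed the filter. Of these, 8 were at least 2-fold higher, where 2.12% of all genes were, and 0 lower. Their median was 0.70, beside 0.34 in Het 1. The median was 0.45 over all 33 and 0.29 over the 5 with a mean of at least 20 FPKM. The cytokines Il4, Il13 and Il9 of other helper types missed the filter by their mean but were also higher at 72 h in cKO 2. Il4 stood at 0.391 and 6.21 FPKM, Il13 at 0.626 and 7.65 and Il9 at 0.248 and 7.11. Gata3, which directs the T helper 2 programme, had a change of 0.05.

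Interferon-stimulated genes were higher as a group. Of 43 listed, 29 passed the filter and all 29 had a change above 0, where 54.3% of all genes did. At least 2-fold higher were 13, where 2.12% of all genes were. The median was 0.88, beside 0.13 in Het 1. In cKO 4, 25 of the 29 levels recurred, where 63% of all genes with a change above 0 did. A gene can pass the filter through its 72 h level alone, so these counts are a description. Among the 14 below the filter, Gbp6 stood at 2.102 and 7.71 FPKM in cKO 2 and the antiviral genes Ifit1 at 0.969 and 2.13, Mx1 at 0.5403 and 0.969 and Oas2 at 0.933 and 0.653. The 2-fold higher members were largely GTPases that interferon gamma is known to induce.

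Iigp1 (ENSMUSG00000054072), an immunity-related GTPase that attacks the vacuoles of parasites, stood at 8.51, 86.95 and 97.4 FPKM in the libraries labelled cKO and at 11.7, 3.34 and 12.8 in Het. The 72 h libraries labelled cKO stood above the other 4 without overlap. The ratio in cKO 2 was 10.2 (95% counting interval 9.27 to 11.3), and Het 1 had a change of -1.54.

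The guanylate-binding protein Gbp2, whose promoter is printed above, stood at 30.02, 123 and 176 FPKM, and at 32.3, 51.6 and 100.2 in Het. Irgm1, a GTPase that marks host membranes, stood at 14.3, 44.6 and 50.2, and at 15.7, 10.8 and 18.5 in Het. Gbp2 was above both 48 h libraries in every 72 h library, while Irgm1 was far above them only in the 2 libraries labelled cKO. Gbp4 (1.48), Igtp (1.33), Irgm2 (1.23), Gbp7 (1.17) and Gbp5 (1.04) had changes above 1 as well. In each of these 5 GTPases the level of cKO 4 was above that of cKO 2 at 72 h.

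Irf1, an interferon-induced transcription factor, stood at 118, 237 and 252 FPKM in the libraries labelled cKO and at 96.99, 67.7 and 123 in Het. It was highest in the 2 libraries labelled cKO at 72 h. Usp18, a brake on interferon signalling, stood at 7.32, 18.5 and 14.1, and Nlrc5, which drives MHC class I genes, at 75.2, 155 and 259. The peptide transporter Tap1 and the immunoproteasome subunit Psmb9 had changes of 0.77 and 0.94, beside 0.04 and 0.09 in Het 1.

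Ly6a (ENSMUSG00000075602; Sca-1), a surface protein of activated lymphocytes that interferon induces, stood at 42.4, 529 and 740.1 FPKM, and at 67.2, 218 and 186 in Het. Each 72 h library was above both 48 h libraries, with the 2 labelled cKO the highest. Ifitm1, an antiviral membrane protein, stood at 2.69, 29.9 and 36.6, and at 2.11, 136 and 63.5 in Het, so Het 1 was its highest library.

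**Figure D2:**
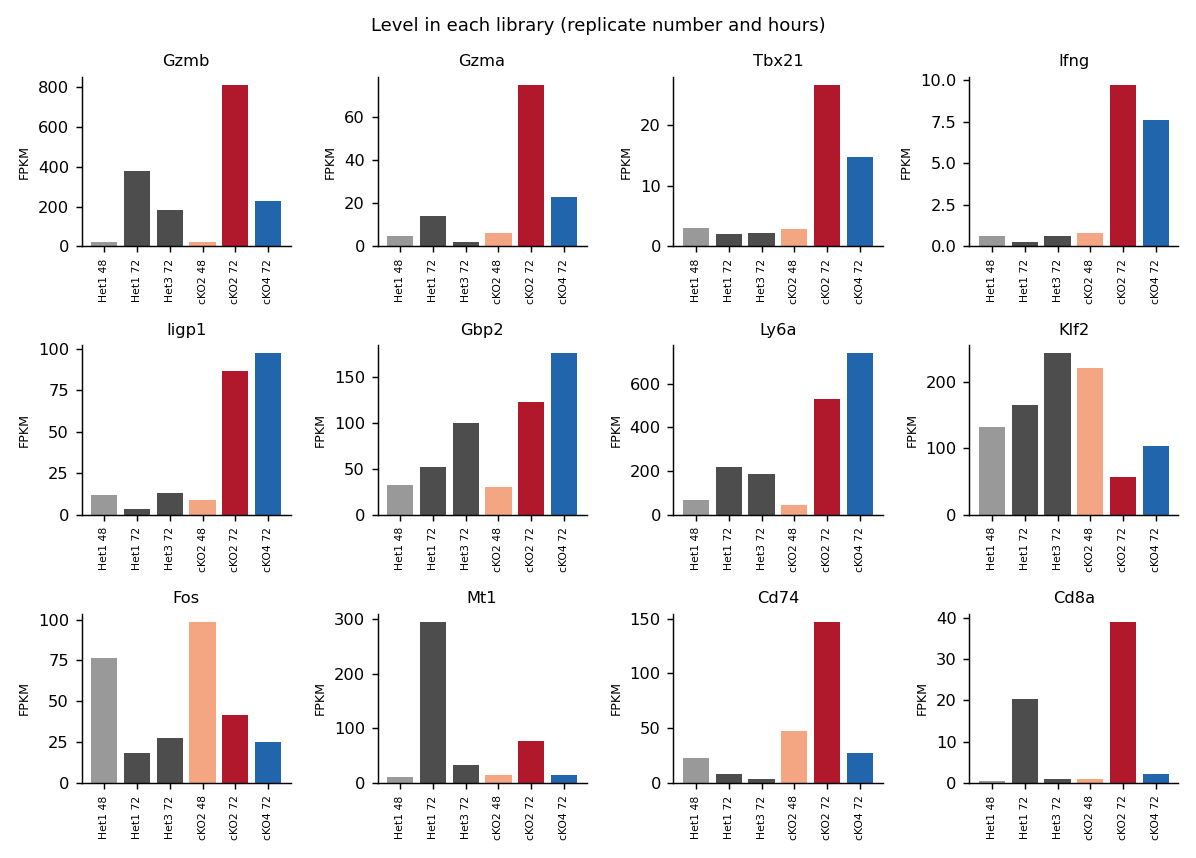
FPKM of 12 genes (vertical axes, each from 0) in the 6 libraries (horizontal axes, replicate number and hours); each bar is 1 library and carries no error bar. Iigp1 and Tbx21 are high in both 72 h libraries labelled cKO, while Cd8a and Cd74 are high in cKO 2 at 72 h and low in cKO 4.

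MHC class II genes, which show peptides to CD4 T cells, were higher in cKO 2 at 72 h, and cKO 4 was divided. Of 12 listed, 8 passed the filter and 6 of these were at least 2-fold higher, where 2.12% of all genes were. The median was 1.39, beside 0.13 in Het 1. In cKO 4, 4 of the 8 levels recurred, where 63% of all genes with a change above 0 did. The median of cKO 4 against the same 48 h library was -0.16 over these 8 genes. It was 0.61 over the 10 genes that passed the filter with cKO 4 in place of cKO 2. Cd74, the invariant chain, stood at 47.4, 147 and 27.4 FPKM, and at 22.9, 7.796 and 3.32 in Het. The chain H2-Aa stood at 9.78, 35.02 and 1.04, and at 1.91, 1.75 and 0.0503 in Het. Both were highest in cKO 2 at 72 h and below their 48 h level in cKO 4. H2-Ab1 was highest in Het 1 at 72 h, at 115 FPKM against 91.4 in cKO 2. H2-DMa, which helps to load peptides, stood at 26.7, 69.9 and 53.2 and stayed high in cKO 4.

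B cell markers moved with the class II genes in cKO 2. Of 12 listed, 5 passed the filter and 4 of these were at least 2-fold higher, where 2.12% of all genes were. The median was 1.28, beside -0.02 in Het 1. Pax5, which defines the lineage, stood at 5.68, 25.2 and 0.0474 FPKM, and was at most 1.41 in Het. Fcer2a, a low-affinity IgE receptor abundant on B cells, stood at 0.9703, 16.5 and 0.0271. The immunoglobulin gene Ighm went the other way, at 211, 182 and 487. Summed over the 12, with Ighm the largest, the libraries labelled cKO stood at 245, 284 and 507 FPKM and Het at 166 to 324; 1 was at 0 in cKO 4 and 2 in Het 3. The part of B cells in the class II result was not tested.

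Irf8, a transcription factor of B cells, dendritic cells and activated T cells, stood at 151, 395 and 113 FPKM, and at 152, 71.8 and 35.01 in Het. Ccl22, a chemokine that draws Ccr4-bearing T cells, stood at 6.25, 71.1 and 0.509, and in Het at 5.74 and 1.53 in Het 1 and listed at 0 in Het 3. Both were highest in cKO 2 at 72 h and at or below the 48 h level in cKO 4. The summed markers of monocytes, macrophages and dendritic cells were also high in cKO 2, at 48.9 FPKM at 48 h and 38.6 at 72 h, with 0 and 1 of the 17 at 0. Of the 17, 2 passed the filter, 1 with a change above 0 and 1 below. The part of such cells in the Irf8, Ccl22 and class II values was not tested. Tgm2 (transglutaminase 2) was high in both 72 h libraries of the first table, at 69.4 in cKO 2 and 84.9 in Het 1, and stood at 14.98 in cKO 4.

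Genes of Treg identity stayed near their 48 h level as a group. Of 42 listed, 36 passed the filter, with a median of 0.05 beside -0.06 in Het 1. At least 2-fold higher were 4, where 2.12% of all genes were, and 0 were lower. The 4 were Gzmb, Penk, Lag3 and Itgae. Penk, which encodes an opioid peptide precursor, stood at 10.6, 38.3 and 26.2 FPKM, and at 10.2, 2.64 and 0.758 in Het. The inhibitory receptor Lag3 stood at 20.98, 54.6 and 147, and at 16.9, 42.9 and 56.4 in Het. Itgae (CD103), which binds E-cadherin of epithelia, stood at 6.26, 15.9 and 87.2, and at 4.96, 13.5 and 22.4 in Het. Penk was high only in the 72 h libraries labelled cKO, whereas Lag3 and Itgae were higher at 72 h in both genotypes and highest in cKO 4. Of the 36 genes, 27 were higher in cKO 4 than in cKO 2 at 72 h, among them Icos (368 against 101 FPKM) and Tigit (199 against 48.1).

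Receptors that guide cells into tissues were partly higher. Of 26 listed, 15 passed the filter. At least 2-fold higher were 5, among them Itgb3, Cxcr3, Itgae and Gpr15, and 1, Ccr6, was lower at -1.11. Over all genes the shares were 2.12% higher and 0.554% lower. Cxcr3, a receptor for interferon-induced chemokines, stood at 3.205, 8.93 and 60.5 FPKM, and at 2.05, 5.66 and 20.7 in Het. In cKO 2 at 72 h it stood below cKO 4 and below Het 3.

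Klf2 (ENSMUSG00000055148), which keeps naive T cells recirculating through lymph nodes, was among the lower genes. It stood at 220.3, 56.5 and 104 FPKM in the libraries labelled cKO and at 132, 165 and 243 in Het. The 72 h libraries labelled cKO were the lowest of the 6. The ratio in cKO 2 was 0.256 (95% counting interval 0.245 to 0.268), while Het 1 had a change of 0.32. Its known target S1pr1, the receptor for exit from lymph nodes, had a change of -0.35, beside 1.45 in Het 1. Of 24 naive and homing genes, Klf2 alone passed 2-fold in cKO 2. In Het 1, 7 were at least 2-fold higher, where 3.2% of all genes were. Igfbp4, another gene of this list, stood at 102 and 96.9 FPKM in cKO 2 and at 84.9 and 521 in Het 1.

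Early-response transcripts were mostly lower at 72 h, less so in cKO 2 than in Het 1. Of 33 listed, 30 passed the filter and 23 had a change below 0, where 45.7% of all genes did. In cKO 2, 3 were at least 2-fold lower and 1, Irf8, was higher at 1.38. In Het 1, 15 were at least 2-fold lower and 1 higher. Over all genes, 0.554% were at least 2-fold lower in cKO 2 and 2.57% in Het 1. The medians were -0.28 in cKO 2 and -1.01 in Het 1. Fos, a subunit of AP-1, stood at 98.7, 41.3 and 24.9 FPKM, and at 76.7, 18.2 and 27.4 in Het. Fosb, its relative, stood at 48.2, 17.03 and 0.08101, and at 35.2, 0.166 and 0.0877 in Het. Among the 72 h libraries, Fosb was thus abundant in cKO 2 alone. The phosphatase Dusp1 stood at 149, 72.5 and 35.6, and at 105, 27.1 and 36.8 in Het.

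The nuclear receptor Nr4a1, a reporter of antigen receptor signals, stood at 199, 99.7 and 21.8 FPKM, and at 131, 15.95 and 8.54 in Het. Its relative Nr4a3 stood at 143, 104 and 22.8, and at 136, 10.05 and 3.75 in Het. At 72 h cKO 2 was the highest library for both, and cKO 4 stood above the Het libraries by less. Egr1 and Egr2 had changes of -0.07 and 0.62, beside -1.79 and -2.05 in Het 1. Of 20 NF-kappaB genes, 0 passed 2-fold in cKO 2 (median -0.16). In Het 1, 5 were at least 2-fold lower, where 2.57% of all genes were. Tnfaip3 (A20), which shuts off NF-kappaB, stood at 139.7, 74.7 and 35.5 FPKM, and at 119, 20.5 and 23.9 in Het.

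Ribosome assembly genes kept their 48 h level in cKO 2, and their sum was lower in each of the other 72 h libraries. Of 53 small subunit processome and 40S assembly genes, 50 passed the filter and 0 were 2-fold higher or lower, with a range of -0.60 to 0.37 and a median of 0.10. Noc4l was the lowest of the 50. In Het 1 the median was -0.72 and 7 of the 50 were at least 2-fold lower, where 2.57% of all genes were. The change of cKO 2 was above that of Het 1 for 48 of the 50. Over all genes the median change was 0.03 in cKO 2 and -0.06 in Het 1. The share of all genes with cKO 2 above Het 1 was not computed. All 50 stood lower in cKO 4 than in cKO 2 at 72 h. By the midpoint rule 15 of the 50 levels recurred, where 59.6% of all genes did.

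Summed, the 50 stood at 2687, 2657 and 1410.4 FPKM in the libraries labelled cKO and at 2508, 1576 and 1498 in Het. Fbl (fibrillarin), the RNA methyltransferase of box C/D particles, stood at 334, 277 and 117 FPKM, and at 287, 169 and 115 in Het. Utp20, a scaffold of the processome, stood at 9.48, 12.5 and 5.32, and at 10.7, 3.67 and 4.03 in Het. In both genes cKO 2 was the highest of the 72 h libraries.

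Large subunit assembly genes stood the same way. The 57 past the filter had a median of 0.05 in cKO 2 and -0.76 in Het 1, and 0 were 2-fold higher or lower in cKO 2. Mdn1, an ATPase that remodels large subunit precursors, had the highest change of the list and stood at 40.6, 62.9 and 38.1 FPKM, and at 48.7, 20.4 and 30.3 in Het. RNA polymerase I and III genes had a median of 0.03, with the shared subunit Polr1c at -0.60. The E-box CACGTG, which Myc can bind, was in 27.9% of 43 promoters of the small subunit list, in 17.5% of 57 of the large subunit list and in 10.4% of the 9188 promoters of genes past the filter.

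The supply side of growth was flat in the same library. Of 29 Myc, polyamine and nucleotide genes, 0 were 2-fold higher or lower in cKO 2 (median -0.05). In Het 1, 8 were at least 2-fold lower (median -0.84), where 2.57% of all genes were. Myc itself stood at 172, 154 and 94.3 FPKM, and at 158, 131 and 160.2 in Het. Srm, which makes spermidine, stood at 201, 212 and 64.9, and at 159, 56.2 and 47.97 in Het. At 72 h Srm was highest in cKO 2, while Myc in cKO 2 lay within the range of the Het libraries. Cytosolic tRNA synthetases (median 0.00 over 19 genes), proteasome subunits (0.02 over 31) and mitochondrial ribosomal proteins (-0.06 over 76) were near 0 in cKO 2, with Het 1 medians of -0.64, -0.43 and -0.35.

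Cytosolic ribosomal proteins were slightly lower, with 68 of 78 below 0 (45.7% of all genes were) and a median of -0.18, beside -0.09 in Het 1. Their sum was 123852 and 106997 FPKM in cKO 2. It was 63036 in cKO 4 and 63035 in Het 3, so both libraries of the second table stood lower. Levels of growth genes set across the tables carry that gap.

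**Figure D3:**
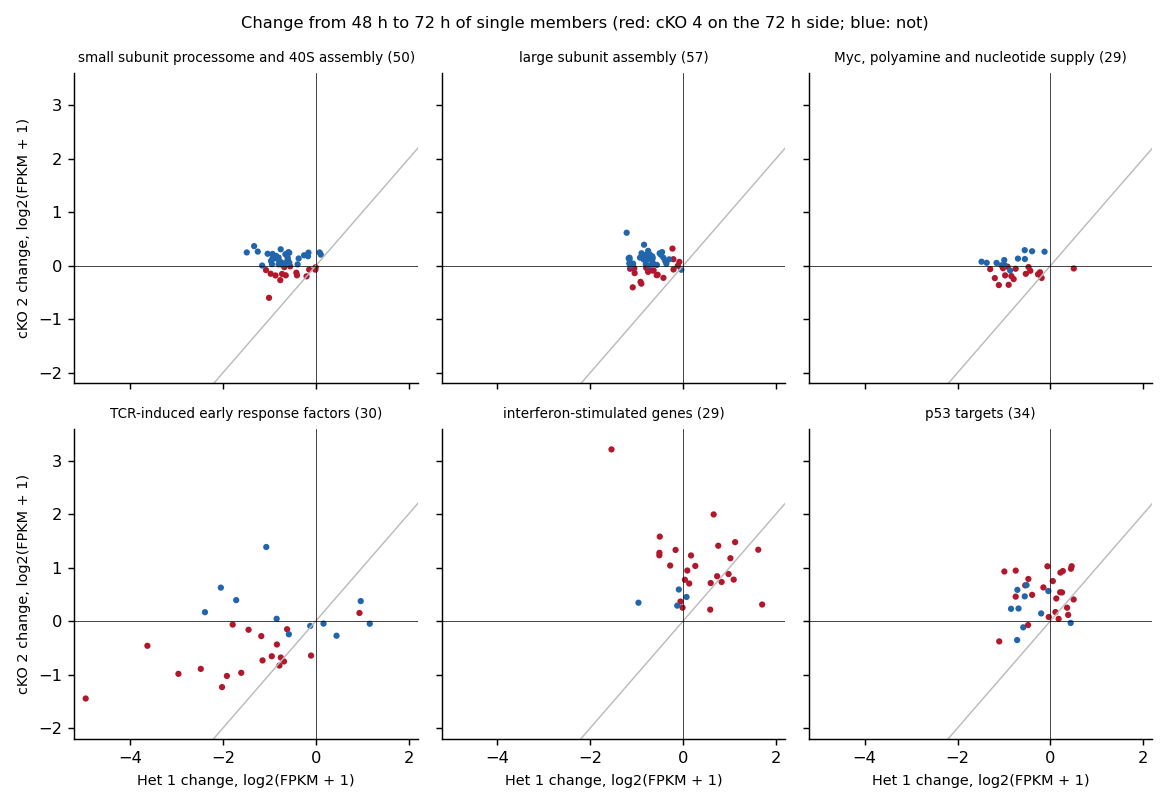
Change from 48 h to 72 h in cKO 2 (vertical axes) against Het 1 (horizontal axes), both log2(FPKM + 1), with 1 point per member past the filter of 6 gene lists; red points have a cKO 4 level on the 72 h side, and the grey diagonal marks equal change. Of the small subunit genes 48 of 50 lie above the diagonal, and all 29 interferon-stimulated genes lie above 0 on the cKO axis.

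Cell cycle genes were slightly lower at 72 h in cKO 2. Of 42 mitotic genes, 37 had a change below 0 in cKO 2 (median -0.14), where 45.7% of all genes did. In Het 1, 37 were above 0 (median 0.23). For 0 of the 42 was the change of cKO 2 above that of Het 1, a count whose share over all genes was not computed. The kinase Aurkb stood at 178, 127 and 138 FPKM, and at 192, 201 and 174 in Het. Top2a, which untangles chromosomes, stood at 449.6, 462 and 491, and at 626, 880.0 and 807 in Het. Top2a was lower in each library labelled cKO than in any Het library. Of 43 genes of DNA replication, 36 were below 0 in cKO 2, again beside 45.7% of all genes (median -0.16, beside -0.33 in Het 1). The clamp Pcna stood at 717, 579 and 413 FPKM, and at 759.9, 602 and 458 in Het. None of these 85 genes was 2-fold higher or lower in cKO 2.

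Targets of p53 were mostly higher in cKO 2. Of 36 listed, 34 passed the filter and 29 of these had a change above 0, where 54.3% of all genes did. At least 2-fold higher were 2, where 2.12% of all genes were. The median was 0.48 beside -0.11 in Het 1. In cKO 4, 24 of the 34 levels recurred, where 59.6% of all genes did. Cdkn1a (p21), which halts the cell cycle, stood at 137, 271 and 201 FPKM, and at 98.2, 134 and 74.9 in Het. The death receptor Fas stood at 20.4, 42.5 and 32.3, and at 15.4, 21.5 and 20.02 in Het. Sesn2, a stress-induced inhibitor of growth signalling, stood at 17.2, 35.98 and 38.7, and at 9.15, 8.72 and 12 in Het. In all 3 both 72 h libraries labelled cKO stood above the other 4. Ccng1 (0.67, beside -0.54 in Het 1) and Zmat3 (0.93, beside -0.99) moved apart between the genotypes, and Mdm2, the inhibitor of p53, had a change of 0.42. Of 21 BCL2 family and caspase genes, 0 passed 2-fold (median 0.16), with Bax at 0.23 and Bcl2 at 0.68.

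Glycolysis and hypoxia genes were flat as a group in cKO 2 and higher in Het 1. Of 29 past the filter, 3 were at least 2-fold higher in cKO 2 (median 0.03) and 8 in Het 1 (median 0.56). Over all genes the shares were 2.12% and 3.2%. The 3 were the glucose transporter Slc2a3, the glycolytic enzyme Aldoc and the oxygen sensor Egln3. Slc2a3 stood at 38.7, 92.3 and 45.1 FPKM, and at 41.6, 239 and 144 in Het. Ndrg1, a hypoxia-induced gene, stood at 38.5, 47.1 and 49.9, and at 55.2, 279 and 208 in Het. Both were highest in the Het libraries at 72 h. Oxidative phosphorylation genes of the nucleus had a median of -0.02, beside -0.15 in Het 1. Those of the mitochondrial genome had a median of -0.02, beside -0.93 in Het 1. The 10 mitochondrial genes ran from -1.25 to 1.05 in cKO 2, with 1 at least 2-fold higher and 1 lower. Over all genes these shares were 2.12% and 0.554%.

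Chaperones and genes of the unfolded protein response were mildly higher, with 19 of 25 above 0, where 54.3% of all genes were. Their median was 0.29 beside -0.43 in Het 1. Hsp90b1, a chaperone of the endoplasmic reticulum, stood at 190.0, 285 and 189 FPKM, and at 219, 231 and 181 in Het. The median of the chaperone list was 0.14 over all 27 listed, and -0.45 for cKO 4 against the same 48 h library; 23 of the 25 genes were lower in cKO 4 than in cKO 2 at 72 h. Of 17 integrated stress response genes, 12 passed the filter, 4 had a change above 0 and 8 below, where 45.7% of all genes were below 0. Of the 12, 1 was at least 2-fold higher and 2 lower, where 2.12% and 0.554% of all genes were. The list had a median of -0.25 beside 0.01 in Het 1. Its lowest member Trib3, a pseudokinase induced by amino acid shortage, stood at 24.5, 10.4 and 5.93, and at 14.97, 44.5 and 32.5 in Het. The Het libraries of 72 h were its highest and cKO 4 its lowest.

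The metallothioneins Mt1 (ENSMUSG00000031765) and Mt2 (ENSMUSG00000031762), which bind zinc and copper and whose promoters are printed above, were higher in both genotypes of the first table. Mt1 stood at 13.6, 76.2 and 14.5 FPKM, and at 10.8, 296 and 31.9 in Het. Mt2 stood at 4.39, 26.8 and 1.53, and at 3.69, 175 and 10.8 in Het. Het 1 at 72 h was the highest library for both, and cKO 4 lay near or below the 48 h level. The zinc exporter Slc30a4 had a change of 1.17; the 14 genes of the list had a median of 0.15.

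Cytokine receptors and their signalling genes were moderately higher. Of 27 interleukin 2, JAK-STAT and SOCS genes, 23 had a change above 0, where 54.3% of all genes did (median 0.37, beside 0.16 in Het 1). Il2rb, the signalling chain shared by the interleukin 2 and 15 receptors, stood at 393, 571 and 629 FPKM, and at 401, 648 and 653 in Het. The cytokine Lif stood at 30.97, 82.6 and 35.4, with cKO 4 back near the 48 h level. Of 16 TNF receptor family genes, 2 were at least 2-fold higher, where 2.12% of all genes were. They were Fas and Tnfsf4 (OX40 ligand), the second at 6.87, 17.6 and 10.03. The co-stimulatory receptor Tnfrsf9 (4-1BB) had a change of 0.55.

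Sterol synthesis (median -0.12), fatty acid synthesis (0.04), autophagy (0.14), DNA methylation and Polycomb (-0.02), amino acid transport (-0.15), cyclins D and CDKs (0.11) and hosts of small nucleolar RNAs (-0.11) stood near the median of all genes. The plot of list medians shows that the lists farthest from 0 in cKO 2 were class II presentation, cytotoxic genes and interferon-stimulated genes.

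**Figure D4:**
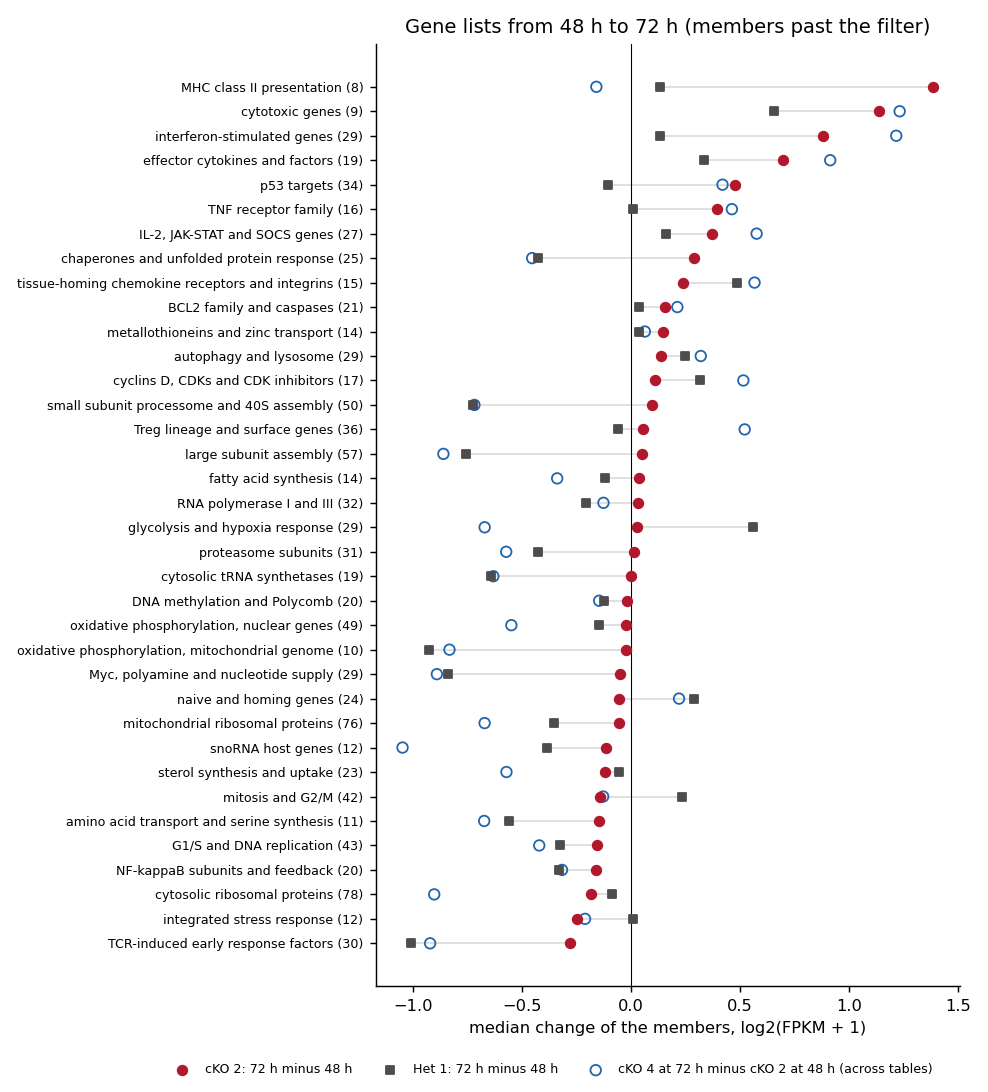
Median change (horizontal axis, log2(FPKM + 1)) of 36 gene lists (rows, with the number of members past the filter) in cKO 2, in Het 1 and for cKO 4 at 72 h minus cKO 2 at 48 h, the last across the tables and sharing its 48 h library with the first. Class II presentation is highest in cKO 2 at 1.39 and early response factors lowest at -0.28.

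Several of the lowest changes belonged to genes that stood in cKO 2 at 48 h at least 2-fold above every other library. Shd (ENSMUSG00000039154), an adaptor protein, stood at 25.7, 0.352 and 0.196 FPKM, and at 0.157, 0.154 and 0.0796 in Het. Mpnd (ENSMUSG00000003199), a protein with a deubiquitinase-like domain, stood at 195, 48.05 and 54.5, and at 56.2, 92.1 and 86.6 in Het. The 48 h library labelled cKO was thus above the other 5, Het 1 at 48 h included. Tpm3-rs7, a related sequence of a tropomyosin gene whose reads may be shared with near-identical copies, stood at 45.1, 0.716 and 0.144, and at 11.02, 0.136 and 0.176 in Het. It was thus higher at 48 h than at 72 h in both genotypes, with a change of -3.40 in Het 1.

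Shd and Mpnd are neighbours on chromosome 17. In the RefSeq gene order, 12 genes in a row from Zfp119a to Chaf1a had their highest level in cKO 2 at 48 h, at 1.44 (Chaf1a) to 73.0 (Shd) times the highest of the other 5 libraries. The next genes on either side, Pot1b and Ubxn6, stood at 0.751 and 0.816 times the highest other library. The run holds Sh3gl1, an endocytosis protein, at 128, 41.8 and 57.99 FPKM, and Yju2, a splicing factor, at 29.8, 11.8 and 9.64. It also holds Ebi3, a subunit of interleukin 35 that Tregs are known for, at 10.96, 5.84 and 6.65, and Chaf1a, a histone chaperone, at 65.9, 35.3 and 32.1. The cause of this run was not tested.

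**Figure D5:**
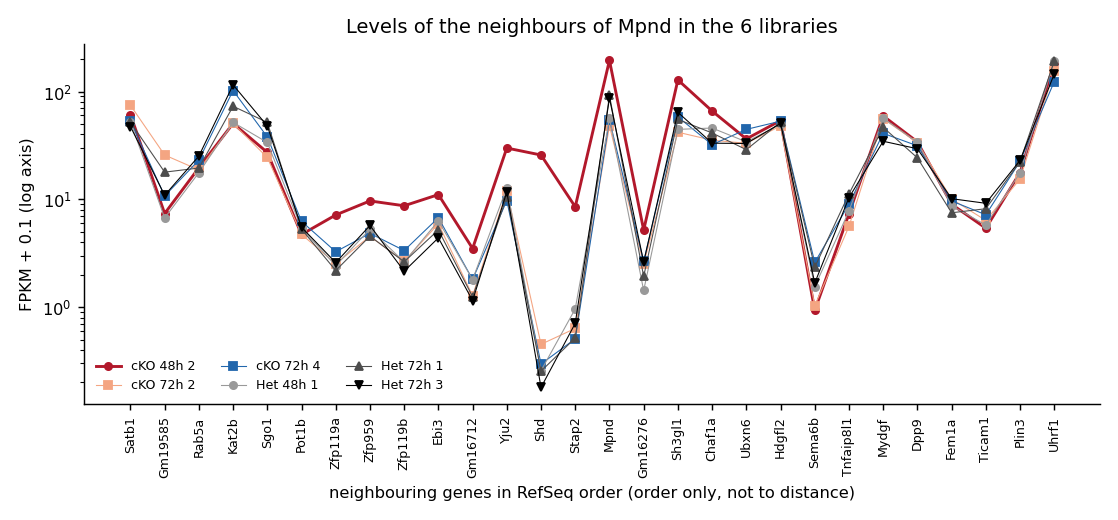
FPKM + 0.1 (vertical axis, log scale) of 28 neighbouring genes on chromosome 17 in RefSeq order (horizontal axis, order only), 1 line per library. From Zfp119a to Chaf1a the line of cKO 2 at 48 h lies above those of the other 5 libraries.

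Other lower genes recurred in cKO 4. Klf4, a transcription factor of quiescent cells, stood at 20.5, 7.15 and 2.94 FPKM, and at 12.7, 1.27 and 1.15 in Het. Stra6, a receptor for the retinol carrier, stood at 29.6, 11.4 and 2.92, and at 21.1, 1.88 and 0.419 in Het. Both were lower in every 72 h library than in either 48 h library. Zfp36l1, which destabilizes mRNA, stood at 134, 59.7 and 96.9, with cKO 4 on the 48 h side of the midpoint.

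Some genes moved little in cKO 2 and strongly in Het 1. S100a6, a calcium-binding protein, stood at 20.2, 31.8 and 160.1 FPKM, and at 13.9, 256 and 233 in Het, so cKO 4 was nearer to Het than to cKO 2. Acvrl1, a receptor of the TGF-beta family, stood at 4.602, 7.14 and 8.59, and at 4.77, 81.998 and 56.1 in Het, high only in the Het libraries at 72 h. In the other direction the difference between the changes was highest for Iigp1 (4.75) and Ccl22 (4.73).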

How the data were processed

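Total RNA of 6 libraries of activated mouse Tregs (SMART-Seq v4) was compared as FPKM per gene. The FPKM values are as the authors deposited them, in a table per pair of replicates (1 and 2, 3 and 4). Per the submitters' processing notes, Bowtie2 2.2.3, TopHat2 2.0.12, HTSeq 0.6.1 and mm9 were used; their roles, the annotation and the use of strand are, in the sources used here, not given, so overlapping or antisense genes and near-identical copies may share reads. Rows with a running number in place of an Ensembl ID (358 and 278) were left out, and 46488 of 47069 IDs matched a symbol. The cKO 2 and Het 1 changes were computed as log2(FPKM + 1) differences for the genes that averaged 5 FPKM or more in the cKO 2 libraries. With 1 library per time no test was run, and the labels do not say whether libraries came from separate animals.

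Fragment counts were estimated from the steps between low FPKM values and transcript lengths; 87.5% to 89.4% of values then came out whole within 0.02, against 3.68% to 4.22% for scrambled lengths. They serve only the depth and the 95% counting intervals of ratios (exact binomial). The computation was tested on simulated data.

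The members and the 36 gene lists and 7 marker lists were chosen with earlier results of these data known. The genes named were Noc4l and 5 Treg genes, the 15 largest changes in each direction, the 4 largest of each list, the 5 largest in each direction that did not recur in cKO 4, and the 5 largest and smallest differences between the cKO 2 and Het 1 changes, without predicted genes and receptor segments. Other genes named were chosen after their values were seen. Some genes under this rule are not reported here. Alternatives were other pseudocounts, filters and scalings, and cKO 4 in place of cKO 2. Python 3.11.15, pandas 2.3.3, numpy 2.4.6, scipy 1.17.1 and matplotlib 3.10.9 were used.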

Additional observations from a re-analysis of the deposited data

Results flagged for a closer look

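For 6 of the named genes the cKO 2 and Het 1 steps were at least 2-fold in opposite directions; with 1 library per time and genotype, the difference was not tested. Trib3 had a change of -1.17 in cKO 2 and 1.51 in Het 1, and its 72 h level recurred in cKO 4. Iigp1 (3.21 and -1.54) and Penk (1.75 and -1.62) recurred there too. Irf8 (1.38 and -1.07), Cd74 (1.61 and -1.44) and Ccl22 (3.31 and -1.42) did not.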

How the results depend on the processing

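No paired analysis was possible because the step has 1 library per time and comes from no test. Genes at least 2-fold higher at 72 h and genes at least 2-fold lower at 72 h numbered 195 and 51. They numbered 109 and 29 with a pseudocount of 5, 370 and 114 at a mean of at least 1 FPKM, 69 and 22 at a mean of at least 20 FPKM, and 433 and 152 with no filter. With replicate 4 in place of replicate 2 at 72 h, which crosses the tables, they numbered 669 and 408. Under a pseudocount of 0.1, 3 rescalings and protein-coding genes only, both counts stayed within 1.5 times. They were 184 and 46 without the chromosome 17 run and the markers of other cells, a setting chosen after the data were seen, as was the protein-coding one.

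Of 43 list medians and 191 named genes, 1 whose value was at least 1 in size changed sign without replacing a library: the B cell median was -0.21 at a mean of at least 20 FPKM, where 1 gene was left. With replicate 4, 191 values moved by more than 1 SD of the replicate pair, which holds for a single gene by construction, 14 did not and 11 genes whose value was at least 1 in size changed sign. Over the same members the small subunit median was then -0.72, that of chaperones -0.45 and that of glycolysis -0.67. The 11 genes had -0.85 for Cd79a, -0.77 for Cd74, 0.89 for Maged1, -2.40 for H2-Aa, -0.36 for Cd79b, -0.41 for Irf8, 0.31 for Phlpp1, -1.15 for H2-Eb1, -2.43 for mt-Nd3, 0.24 for Gad1 and -2.31 for H2-Ab1. The cause was not tested. Depth limits the lowest of the 2-fold genes, which had 8 fragments on their higher side, against a median of 769 for the higher genes.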
